A study of Mus musculus with 16 samples.

Results

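The comparison described here sets the 2 arrays labelled with Adriamycin (ADR, doxorubicin) alone at 12 h against the 2 arrays labelled untreated at 0 h, in transformed mouse embryonic fibroblasts (MEFs). These 4 arrays, chosen by their titles, belong to a series of 16 Illumina BeadChip arrays. MEFs are connective tissue cells grown from mouse embryos. All 4 arrays came from RasV12/E1A-transformed MEFs, cells that carry an activated Ras and the adenoviral protein E1A. The pair titled pbabe was labelled Smad1f/f (floxed, intact Smad1) and the pair titled cre was labelled Smad1-/- (Smad1 deleted), so each genotype contributed 1 untreated and 1 ADR array. The titles give 0.3 uM ADR, while the design text gives 1 ug/ml doxorubicin for the series, and the dose used could not be settled. Embryo strain, the number of clones and whether the arrays came from separate cultures are not given in the sources used here, so p-values measure only the spread between these arrays. The other 4 transformed arrays, 2 labelled BMP2 for 12 h (100 ng/ml in the titles and 50 ng/ml in the design text) and 2 labelled BMP2 and ADR for 12 h, shared the fit and gave an ADR contrast without a time difference. The other 8 arrays came from non-transformed passage 2 primary MEFs, untreated or given BMP2, ADR or both, at 8 h or 16 h. No transformed array was untreated at 12 h, so the ADR label and 12 h in culture cannot be told apart in the comparison of interest.

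Doxorubicin traps topoisomerase II on DNA and breaks the double helix. The breaks activate the transcription factor p53, which raises Cdkn1a (p21, an inhibitor of cyclin-dependent kinases) and Mdm2 (the ubiquitin ligase that degrades p53), and genes of DNA synthesis and mitosis are shut off as cells arrest. Cells left in a dish also use up amino acids, growth factors and lipids. The transcription factor ATF4 answers a shortage of amino acids by raising transporters, aminoacyl-tRNA synthetases and stress regulators, and the SREBP factors answer a shortage of sterols by raising the enzymes of cholesterol and fatty acid synthesis.

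The 4 arrays were alike in quality, with 43.8% to 44.3% of probes detected. Of the 30 fibroblast markers on the array 29 were detected on all 4, while 12 of 16 epithelial, 9 of 14 endothelial and 6 of 9 macrophage markers were detected on none of them, including Epcam, Cdh1, Pecam1, Cdh5 and Ptprc. The summed intensity of the fibroblast markers was 141400 to 147100 on the untreated arrays and 151900 to 155300 on the ADR arrays, and that of the endothelial markers 1820 to 1866 and 1436 to 1600. The epithelial sums overlapped (579 to 598 and 534 to 619), as did the macrophage sums (567 to 642 and 598 to 657), and the part of other cells in the results was not tested. In such bulk RNA, fewer cells of a type and less RNA per cell cannot be told apart. Smad1 did not separate the genotype labels, at a log2 intensity of 8.87 on the pbabe and 8.36 on the cre untreated array and 8.73 and 8.93 on the ADR arrays. Whether its probe lies in the deleted part is not known here, so these values do not check the labels.

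The agent labels themselves are in doubt, which bears on every contrast given here that uses the arrays labelled ADR or BMP2. Mdm2 and Cdkn1a, which doxorubicin raises through p53, did not pass on the arrays labelled ADR alone in either the transformed (-0.04 and -0.15) or the primary cells (-0.03 and 0.14). In the transformed cells Mdm2 was higher on the arrays labelled BMP2 (12.10 and 12.12) than on those labelled ADR (11.54 and 11.47). Id1, a direct target of BMP signalling, was no higher on the transformed arrays labelled BMP2 than at 0 h, and it rose by 1.41 on the primary arrays labelled ADR, with 4 other BMP targets. On the transformed arrays labelled ADR, Id1 did not pass, with -0.91 in the pbabe and 0.16 in the cre pair. Of 16 BMP targets 2 rose there, against 1.96% of all genes, and their median was -0.001. Whether arrays were exchanged or ADR did not act was not tested. The labels are kept, and ADR and BMP2 below mean the arrays that carry those labels.

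The ADR arrays stayed close to the untreated ones. Across 10283 genes the standard deviation of the difference in log2 intensity was 0.230 between the untreated arrays themselves, 0.295 between untreated and ADR in the pbabe pair and 0.276 in the cre pair, and 0.303 between the ADR arrays. The distance from the untreated to the BMP2 array was 0.704 in the pbabe pair and 0.703 in the cre pair. In the fit with a genotype term 399 genes differed between ADR at 12 h and untreated at 0 h, of which 202 were higher (1.96% of the genes tested) and 197 lower (1.92%). All 399 had the same sign in both pairs, as did 63.7% of all genes. The 399 were called on these same pairs, so their shared sign follows largely from the selection and is no added support. Of the 399, 26 changed by at least 1 on the log2 scale. Changes ran from -1.51 to 1.47, with a median of -0.002 over all genes. The count rested on 6 of the 8 arrays fitted. It fell to 6 without the pbabe untreated array and 9 without the cre untreated array, to 159 and 165 without the pbabe or the cre ADR array, and to 183 and 184 without the pbabe or the cre BMP2 array. The balance of higher and lower genes depended on scaling, since with median scaling 108 of 461 genes were higher and with the authors' values 146 of 531, while median scaling moved the median of all genes only to -0.06. Among 72 named genes that passed, 63 did not pass without the pbabe untreated array, nor without the cre untreated array. The calls of Ddit3, Slc7a3, Hmgcs1, Sqstm1 and Col1a1 were lost without the pbabe array only, those of Trib3, Gprc5a and Sbsn without the cre array only, and that of Sprr2k in neither case. No named gene that passed changed its sign under any alternative run. The calls lost most often were not only those of small changes. Those of Postn and Sel1l were lost under 14 of 18 alternatives, of Btg1 under 13, of Ccng1 under 11 and of Ccne2 under 10. That of Nppb, which changed by -1.06, was lost under 12 of 17.

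p53 targets hardly moved. Mdm2 had log2 intensities of 11.63 and 11.46 on the untreated arrays, 11.54 and 11.47 on the ADR arrays (pbabe before cre here and below), a change of -0.04 ± 0.07 (SE, n = 2 arrays per group, limma adjusted p = 0.82). The groups overlapped for Mdm2. Cdkn1a stood at 12.05 and 11.99 untreated and at 11.76 and 11.97 with ADR, both ADR arrays being lower, with a change of -0.15 ± 0.08 (adjusted p = 0.347). Of the 27 p53 targets tested 2 rose and 1 fell, against 1.96% and 1.92% of all genes, and their median change was -0.04. Gadd45a, which binds PCNA and Cdkn1a protein and is also a target of ATF4, rose from 8.27 and 7.99 to 9.29 and 8.80, by 0.91 ± 0.12 (adjusted p = 0.00509). Trp53inp1, a p53 cofactor, rose from 9.26 and 8.91 to 9.77 and 9.51, by 0.55 ± 0.11 (adjusted p = 0.029), and Ccng1 (cyclin G1) fell from 11.26 and 11.22 to 10.94 and 10.93, a change of -0.30 ± 0.07 (adjusted p = 0.039). For these 3 genes every ADR array lay on the same side of both untreated arrays. Genes that passed were chosen on this same contrast, so such separation, here and below, is a description and no added support. Values of the remaining targets, among them Plk2, Pmaip1, Fas, Phlda3, Bbc3 and Zmat3, ran from -0.37 for Polk to 0.39 for Ddb2.

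Of the lists examined, the ATF4 list held the most genes that rose. Of 25 members tested 11 rose and none fell, against 1.96% and 1.92% of all genes, with a median change of 0.37. In both pairs 20 of the 25 had positive values. Of all genes 63.7% had the same sign in both pairs, positive or negative. Trib3, a pseudokinase that feeds back on ATF4, had log2 intensities of 9.81 and 9.79 untreated and 10.82 and 10.93 with ADR. Ddit3 (CHOP, a transcription factor of sustained stress) went from 8.71 and 8.66 to 9.80 and 9.65. In both genes each ADR array exceeded both untreated arrays by about 1 log2 unit, with fitted rises of 1.07 ± 0.12 (adjusted p = 0.00289) and 1.04 ± 0.10 (adjusted p = 0.00211). Aldh1l2, a mitochondrial folate enzyme, went from 7.98 and 8.14 to 9.01 and 9.37, and Slc7a3, a cationic amino acid transporter, from 8.54 and 8.41 to 9.54 and 9.36. Their rises were 1.14 ± 0.12 (adjusted p = 0.0025) and 0.97 ± 0.10 (adjusted p = 0.00211), again without overlap.

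The other members that rose covered several branches of the same response. They were the regulators Atf5 (0.61) and Ppp1r15a (0.67), which recruits the phosphatase that ends the translational arrest, Chac1 (0.61), which degrades glutathione, the lipoprotein receptor Vldlr (0.60), the synthetases Aars (0.56) and Gars (0.29) and the leucine transporter Slc7a5 (0.37). Atf4 itself, whose protein is controlled mainly through translation, changed by 0.08 ± 0.11 (adjusted p = 0.76), and the serine synthesis enzymes Psat1 and Phgdh had values of 0.002 and 0.22. Gpt2, an alanine aminotransferase outside the list, rose from 6.46 and 6.03 to 7.5 and 7.26. Niban1, a stress-induced regulator of translation also outside it, rose from 5.29 and 5.34 to 6.41 and 6.31. Counts of the ATF4 list were 1 and 2 without the pbabe or the cre untreated array, and 8 without either ADR array, while its median stayed between 0.24 and 0.40 over all alternatives.

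The promoters of the ATF4 list were read from RefSeq (GRCm38.p6, windows from 250 bases before to 50 bases after the start site). The 8-letter composite element TGATGNAA, with N any base, is the core bound by ATF4 with C/EBP partners, and it was sought on both strands. It was present in 9 of the 20 listed members with a window (45.0%), and in 2.9% of all 7177 tested genes with a window. The list is one of ATF4 response genes, so its share is no test of ATF4 in this contrast. Asns, Pck2, Slc7a11 and Tars held the element and did not pass. Among the members that rose the element was present in 5 of 8 with a window, namely Aars, Chac1, Gars, Trib3 and Vldlr. The stretches around the match in 3 of them follow, 5′ to 3′ on the strand of the gene, with the match in capitals. All 3 matches are on the opposite strand, so the capitals are the reverse complement of the element.
Chac1, chr2:119351009-119351096, plus strand: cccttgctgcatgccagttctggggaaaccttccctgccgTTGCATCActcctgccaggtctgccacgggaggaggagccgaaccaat
Aars, chr8:111033690-111033777, plus strand: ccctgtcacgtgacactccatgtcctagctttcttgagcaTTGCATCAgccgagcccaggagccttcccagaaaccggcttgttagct
Vldlr, chr19:27216780-27216867, plus strand: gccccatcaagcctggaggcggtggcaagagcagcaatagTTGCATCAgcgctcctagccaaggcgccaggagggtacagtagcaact
The match starts at position -193 from the start site in Chac1, -112 in Aars and -200 in Vldlr. These are matches of letters only, and binding was not measured.

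The genes of sterol and fatty acid synthesis formed the second group that rose. Of 26 tested 10 rose and none fell, against 1.96% and 1.92% of all genes. The median change was 0.37, and 23 had positive values in both pairs. The share of all genes with the same sign in both, positive or negative, was 63.7%. Hmgcs1, the synthase at the entry of the mevalonate pathway, had log2 intensities of 12.15 and 12.35 untreated and 12.94 and 13.05 with ADR. Insig1, the sterol sensor that retains SREBP in the endoplasmic reticulum, went from 6.30 and 6.37 to 7.09 and 7.13. Both ADR arrays lay above both untreated arrays for each gene, with rises of 0.74 ± 0.08 (adjusted p = 0.0025) and 0.77 ± 0.16 (adjusted p = 0.0289). Cyp51, the lanosterol demethylase, went from 9.44 and 9.36 to 9.98 and 10.01, and Scd1, the stearoyl-CoA desaturase, from 9.94 and 9.93 to 10.39 and 10.62. These rises were 0.60 ± 0.10 (adjusted p = 0.0166) and 0.57 ± 0.09 (adjusted p = 0.0134), also without overlap.

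Along the cholesterol pathway Fdps (farnesyl diphosphate synthase) rose by 0.46, Sqle (squalene epoxidase) by 0.54, and the later enzymes Nsdhl and Msmo1 by 0.46 and 0.31. On the fatty acid side Scd2 rose by 0.55 and Acly, which supplies cytosolic acetyl-CoA, by 0.35. The synthase Fasn and the carboxylase Acaca had values of 0.12 and 0.01, and Idi1 moved apart in the pairs, at -0.46 in pbabe and 0.97 in cre. Ebp was the member with the lowest value, -0.25. Without the pbabe or the cre untreated array 0 and 1 members passed, and without the pbabe or the cre ADR array 6 and 3, while the list median stayed between 0.26 and 0.45 over all alternatives. The sterol response element letters TCACNCCAC, sought in the same way, were in the window of 1 of 20 listed genes (5.0%) and in 1.44% of tested genes with a window. That gene was Hmgcs1, shown here with the match in capitals.
Hmgcs1, chr13:119690174-119690262, plus strand: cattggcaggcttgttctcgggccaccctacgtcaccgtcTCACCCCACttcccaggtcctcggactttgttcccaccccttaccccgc
The match starts at position -137 and is on the strand of the gene.

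**Figure D1:**
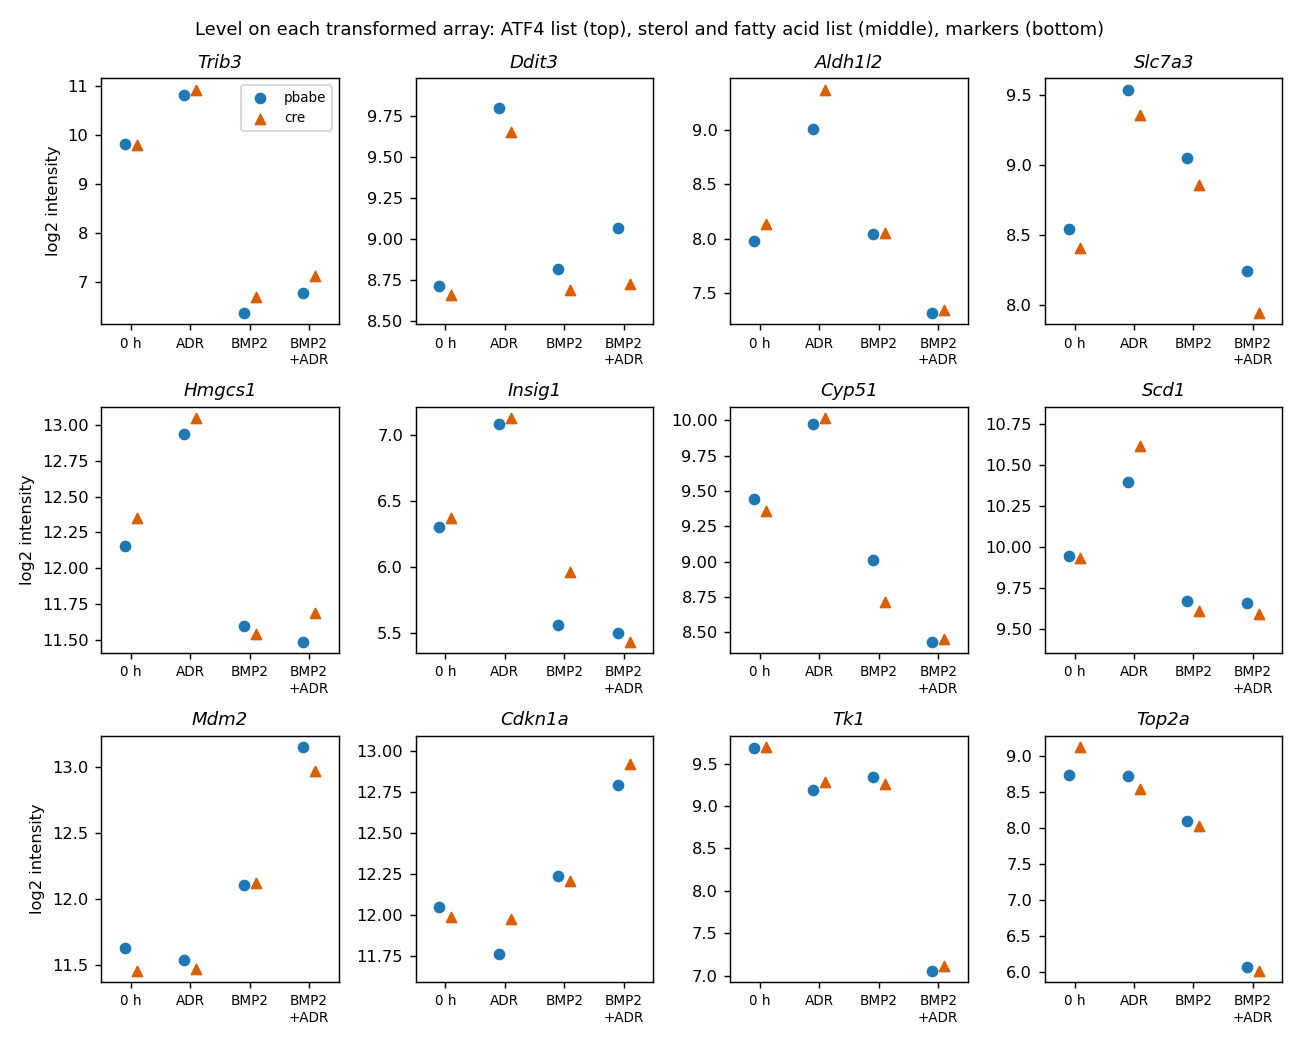
Log2 intensity (vertical axis) of 12 genes on the 8 transformed arrays, by label (horizontal axis), with pbabe arrays as circles and cre arrays as triangles. In the upper 8 panels the ADR arrays lie above all other arrays of the set, while Mdm2 and Cdkn1a are highest with both agents and Tk1 and Top2a lowest there.

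Part of the cell cycle genes were lower on the ADR arrays, 8 of 18 in the list of G2 and mitosis and 3 of 28 in the list of G1/S and replication. Of all genes 1.92% were lower. Tk1, the thymidine kinase of S phase, had log2 intensities of 9.69 and 9.69 untreated and 9.19 and 9.28 with ADR, and fell by 0.45 ± 0.10 (adjusted p = 0.033). Top2a, the topoisomerase that doxorubicin poisons, stood at 8.74 and 9.12 untreated and at 8.73 and 8.55 with ADR. Its change of -0.30 ± 0.14 (adjusted p = 0.301) came from the cre pair, which differed by -0.58 against -0.01 in the pbabe pair. In the list of G2 and mitosis none rose, the median was -0.37, and 16 of 18 genes had negative values in both pairs. Of all genes 63.7% had the same sign in both pairs, positive or negative. Aurka, a kinase of the spindle poles, went from 10.03 and 9.83 to 9.29 and 9.44, and fell by 0.57 ± 0.10 (adjusted p = 0.0216). Kif23, a kinesin of cytokinesis, went from 11.30 and 11.17 to 10.60 and 10.74, and fell by 0.56 ± 0.09 (adjusted p = 0.0108). Cenpa, the histone variant of centromeres, fell by 0.55 ± 0.07 (adjusted p = 0.00509) from 12.10 and 12.05 to 11.57 and 11.50. For Tk1, Aurka, Kif23 and Cenpa the groups did not overlap. The spindle factors Tpx2 and Nusap1 fell by 0.43 each, the mitotic kinase Cdk1 by 0.42, the APC activator Cdc20 by 0.41 and the midzone protein Prc1 by 0.34.

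In the list of G1/S and replication 25 of 28 genes had negative values in both pairs, with a median of -0.26. The share of all genes with the same sign in both, positive or negative, was 63.7%. The listed genes that fell beside Tk1 were Ccne2 (cyclin E2, -0.66 ± 0.15) and the primase subunit Prim1 (-0.52 ± 0.12). The replicative helicase genes did not pass, with values from -0.39 for Mcm5 to -0.02 for Mcm2. In DNA repair genes 0 of 20 passed in limma and 5 had an unadjusted p under 0.05, and the highest absolute values were 0.38 for Prkdc and 0.33 for Atm, the kinases that signal double-strand breaks. Of the 26 histone cluster genes H4c8 alone passed, with a rise of 0.50 ± 0.10. The G2 and mitosis count was 0 without either untreated array, 1 and 3 without the pbabe or the cre ADR array, and 3 without either BMP2 array. The G1/S count was 0 without any single one of the untreated arrays, the BMP2 arrays or the pbabe ADR array, and 1 without the cre ADR array. With median scaling and with the authors' values it was 6 and 7.

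**Figure D2:**
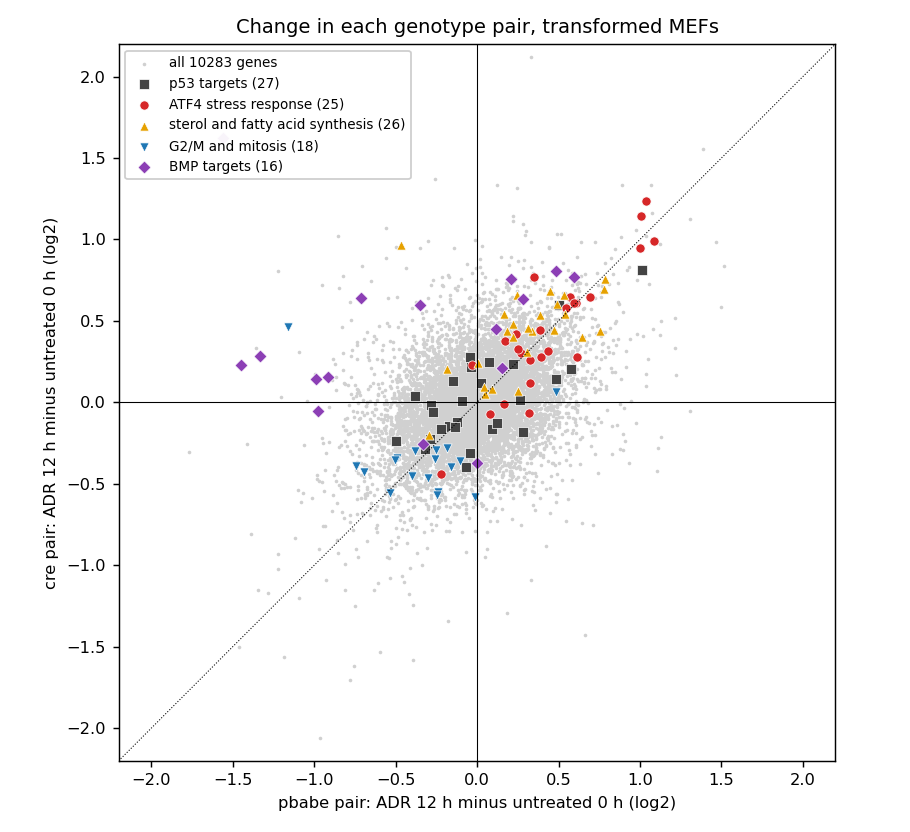
Difference in log2 intensity between ADR at 12 h and untreated at 0 h in the pbabe pair (horizontal axis) and in the cre pair (vertical axis), for 10283 genes in grey and for the tested members of 5 lists in colour. The dotted line marks equal change. ATF4 and sterol genes lie toward the upper right and genes of G2 and mitosis toward the lower left, p53 targets surround the origin, and part of the BMP targets lie far to the left with positive values in the cre pair.

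The highest single change was that of Dbp, an output gene of the circadian clock. Dbp had log2 intensities of 7.06 and 7.21 untreated and 8.45 and 8.77 with ADR, a rise of 1.47 ± 0.17 (adjusted p = 0.00334) or 2.78-fold. Its relative Tef rose by 0.58 ± 0.08 and Bhlhe40, a repressor in the clock, by 0.46 ± 0.10. That made 3 of 10 clock genes, against 1.96% of all genes. Nr1d1, a target of the same activators, had a value of 0.56 that did not pass (0.40 in the pbabe and 0.72 in the cre pair), and the activators Arntl and Clock had values of -0.23 and -0.16.

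Other genes with high rises came from several classes. Dnm1 (dynamin 1) and Kif21b (a kinesin) were not detected on the untreated arrays and were at least 1.81-fold and at least 2.05-fold higher with ADR. Igsf10 rose by 1.20, the receptor Lgr5 by 1.18, Uap1l1 by 1.12, the lysoplasmalogenase Tmem86a by 1.03 and C1qtnf5 by 0.95. Angptl6 rose by 1.22, while a second probe of the gene showed 0.07. In the list of glucose and nutrient sensing 3 of 15 rose, namely the autophagy receptor Sqstm1 (0.73), Igfbp5 (0.60) and the repressor Hbp1 (0.52). Among 26 immediate early genes Fos rose by 0.73, Egr1 by 0.51 and Btg1 by 0.49. Hmox1 (haem oxygenase) rose by 0.56 while Nqo1, another NRF2 target, fell by 0.62. The fibroblast genes Col1a1 (0.57), Col1a2 (0.49) and Postn (0.40) rose, the last with a call that median scaling and the authors' values did not keep, and Timp1 fell by 0.39. Pfkl (0.41) was the 1 of 24 genes of hypoxia and glycolysis that rose, and Sel1l (0.32) the 1 of 15 of the endoplasmic reticulum. Of all genes 1.96% rose, and a single member that passed is no result about its list. The call of Pfkl was lost with median scaling, with the authors' values and with no genotype term. Adm had the lowest value of the hypoxia and glycolysis list, -1.19, and did not pass.

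Among the genes that fell, Mmp3 (stromelysin 1, a matrix protease) had the lowest change. It stood at 8.25 and 8.45 untreated and at 7.29 and 6.39 with ADR, and fell by 1.51 ± 0.22 (adjusted p = 0.0069), with pair values of -0.97 and -2.06. Sprr2k, a small proline-rich protein of the cornified envelope, went from 9.84 and 10.01 to 8.38 and 8.51 and fell by 1.48 ± 0.08 (adjusted p = 3.31e-05). Its groups lay well apart, and among the named genes that passed it alone did so under all 18 alternatives. S100a7a changed by -1.23, Sbsn (suprabasin) by -1.15 and Gjb2 (connexin 26) by -0.98, while the median of the 7 epithelial markers tested was 0.07. Sbsn was the brightest of 3 probes, and the other 2 showed -0.45 and 0.04. The chemokine Ppbp changed by -1.37, Prrc2a by -1.25, the receptor Gprc5a by -1.24, Rasgrp3, an exchange factor of Ras, by -1.10, Mustn1 by -1.08, the natriuretic peptide gene Nppb by -1.06, St3gal6 by -1.01 and Aif1l by -0.999. Lims2 changed by -1.12.

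For the lists that follow, 1.92% of all genes fell and 1.96% rose, and a single member that passed is no result about its list. Of 18 genes of NF-kB and cytokines 2 fell, Mmp3 and the inhibitor Tnfaip3 (A20, -0.98 ± 0.14). In the list of TGF-beta and YAP targets 3 of 15 fell, namely Ankrd1 (-0.89), Edn1 (endothelin 1, -0.56) and Tagln (transgelin, -0.56), while Ccn1 and Ccn2 had values of -0.28 and -0.32 and Tgfbi one of 0.66, none of which passed. Ribosome biogenesis was mixed, with Nop58 (-0.55) and Nhp2 (-0.45) lower and Pes1 (0.48) higher among 22 genes. The small heat shock protein Cryab fell by 0.46, 1 of 11 heat shock genes, and the receptor Flt1 by 0.37, 1 of 7 endothelial markers tested. In limma 0 of 17 interferon genes, 0 of 15 ERK feedback genes, 0 of 7 epithelial and 0 of 4 macrophage markers passed, with 2, 5, 0 and 1 at an unadjusted p under 0.05.

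BMP targets had the same sign in both pairs in 9 of 16 members, against 63.7% of all genes, so the count of opposite signs is near that of genes in general. In the pbabe pair the median of 16 members was -0.34 and in the cre pair 0.37, and 7 members were lower with ADR in pbabe and higher in cre, 6 were higher in both and 3 lower in both. Id1, an inhibitor of helix-loop-helix factors and a direct target of BMP signalling, had log2 intensities of 8.81 untreated and 7.90 with ADR in pbabe, but 10.29 and 10.45 in cre. Id3 had 10.31 and 9.32 in pbabe and 11.03 and 11.18 in cre. The pair values were -0.91 and 0.16 for Id1 and -0.99 and 0.14 for Id3, and the fitted changes over both pairs did not pass (-0.38 ± 0.31 and -0.42 ± 0.23). Id2, Dlx2, a homeobox gene, and Sp7 (osterix, a factor of bone formation), picked after their values were seen, had pair values of -1.45 and 0.23, -1.33 and 0.29, and -1.56 and 1.63. All 16 members were higher on the cre than on the pbabe array in the untreated state, and again with ADR. The share of all genes higher on the cre array was not computed, so this count has no background to be read against. Each state had 1 array per genotype, so the difference between the genotype labels was not tested. Hey1 rose in both pairs by 0.65 ± 0.14 and Msx1 by 0.68 ± 0.16, and neither call held with no genotype term, with median scaling or without either untreated array. The list median was 0.42 without the pbabe ADR array and -0.44 without the cre ADR array, when 4 members were lower and none higher, and each genotype had 1 array per condition, so the difference between the pairs was not tested.

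**Figure D3:**
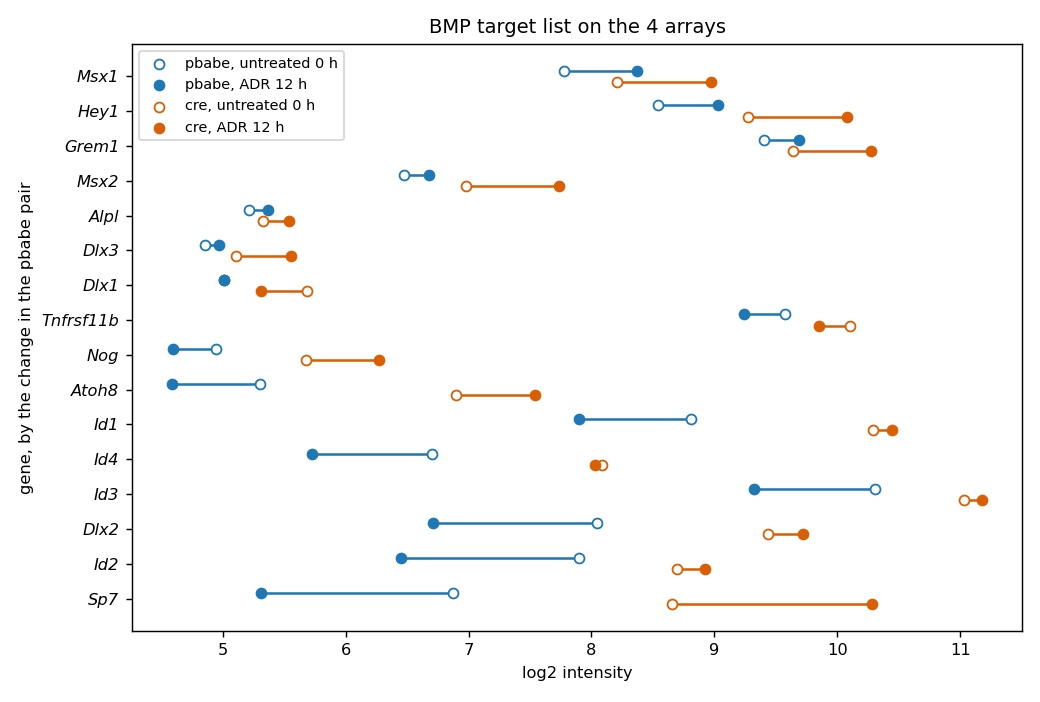
Log2 intensity (horizontal axis) of the 16 tested BMP target genes on the 4 arrays, sorted by the change in the pbabe pair. Open circles are untreated at 0 h and filled circles ADR at 12 h, joined within the pbabe (blue) and the cre (orange) pair. Id1, Id2, Id3, Dlx2, Sp7, Nog and Atoh8 run to the left in pbabe and to the right in cre.

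ADR added to BMP2 at 12 h, a contrast with no time difference and no array in common, had far more genes that passed in the transformed cells. Its baseline is the arrays labelled BMP2, so the doubt about the labels applies to it and to the contrasts below that use those arrays. ADR added to BMP2 had 2039 genes higher (19.8% of 10283) and 1976 lower (19.2%). The 4015 genes became 2628 and 2652 without the pbabe or the cre BMP2 array and 2606 without the pbabe array with both agents. In that contrast Mdm2 rose by 0.95 and Cdkn1a by 0.63, Tk1 fell by 2.21 and Top2a by 2.02. Of the p53 targets 14 of 27 rose and none fell, of the G2 and mitosis genes 17 of 18 fell, and of the G1/S genes 26 of 28 fell. The ATF4 and sterol lists went the other way there, with medians of -0.26 and -0.35, 7 ATF4 members higher and 12 lower, and 0 sterol members higher and 12 lower. Over all 10283 genes the changes of the 2 contrasts had a Pearson correlation of 0.177, a description across genes that share arrays processed together. Of the 399 genes 259 had the same sign in both contrasts (64.9%, against 55.3% of all genes). Of these 399, 250 also passed with BMP2, which is 62.7% of the 399 and 6.23% of the 4015, and 183 of the 250 had the same sign. Both contrasts come from the same fit and share its estimate of spread, so this overlap is no independent support.

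The difference between the ADR contrasts was tested directly. The contrast without BMP2 exceeded that with BMP2 in 1149 genes (11.2%) and lay below it in 1237 (12.0%). With median scaling 759 lay above and 1545 below. The total of 2386 became 1383 and 1525 without the pbabe or the cre untreated array, 1476 and 1502 without the pbabe or the cre BMP2 array and 1557 without the cre array with both agents. Of the p53 targets 11 of 27 lay below and 1 above, with differences of -0.99 ± 0.10 for Mdm2 (adjusted p = 0.000229) and -0.78 ± 0.11 for Cdkn1a (adjusted p = 0.00119). In the ATF4 list 16 of 25 lay above and 1 below, led by Aldh1l2 (1.86 ± 0.17, adjusted p = 0.000126) and Slc7a3 (1.84 ± 0.14, adjusted p = 4.47e-05). Of the sterol genes 19 of 26 lay above and none below, as did 19 of 28 G1/S genes and 8 of 18 genes of G2 and mitosis. Dbp differed by 0.28 ± 0.24 (adjusted p = 0.451), having risen in both contrasts, by 1.47 without and 1.19 with BMP2. Mmp3 fell in both, by 1.51 and 1.78, and Uap1l1, Tmem86a and Sqstm1 rose in both, by 1.12, 1.03 and 0.73 without BMP2 and by 1.32, 0.98 and 0.94 with it.

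Setting ADR alone against BMP2 alone holds the time at 12 h, though it adds the effect of the BMP2 label. In this contrast 2638 genes were higher with ADR (25.7%) and 2567 lower (25%). Of the ATF4 list 16 of 25 were higher and none lower, and of the sterol list 16 of 26 were higher and 4 lower. Trib3 stood at 6.37 and 6.68 on the BMP2 arrays, 4.35 ± 0.12 below the ADR arrays, and its change from 0 h to BMP2 was -3.28. Hmgcs1 was 1.42 higher with ADR than with BMP2, and its own change from 0 h was -0.68. The p53 targets lay lower with ADR than with BMP2 in 17 of 27 and higher in 2. Mdm2 was at 12.10 and 12.12 on the BMP2 arrays, 0.57 above 0 h, and Cdkn1a at 12.24 and 12.21. In each genotype Mdm2 was thus higher on the array labelled BMP2 than on the array labelled ADR, while Id1 was not higher on the BMP2 arrays (8.79 and 9.61) than at 0 h. The ADR and the BMP2 contrasts against 0 h share the untreated arrays.

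Time in culture with the agent held could be measured only in the primary cells, where 16 h was set against 8 h on other arrays. The time term averages over untreated arrays and arrays given BMP2, ADR or both. On arrays given an agent, time in culture and longer exposure cannot be told apart. There 3198 of 9457 genes passed (33.8%), 1393 higher and 1805 lower, a split that became 2029 and 927 with median scaling and 1110 and 3249 with the authors' values. The p53 targets rose in 21 of 27 and fell in none, with a median of 0.75, and Cdkn1a rose by 1.13. In the ATF4 list 15 of 23 members were lower at 16 h and 1 higher, around a median of -0.38, with Trib3 at -1.44 and Chac1 at -1.38. In the sterol list 12 of 26 were lower and none higher (median -0.21), whereas 7 of 18 genes of G2 and mitosis were higher (median 0.17). Dbp and Tef rose with time as well, by 0.66 and 0.58. Across 8862 genes measured in both sets the correlation of the changes was 0.0681, and 180 of 332 of the genes that passed with ADR alone had the same sign (54.2%, against 52.9% of all genes). Primary MEFs are not transformed and the interval was 8 h to 16 h, so this is no measure of 12 h in the transformed cells, and the part of time in their changes was not tested.

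The ADR label in the primary cells, set against untreated arrays of the same time, gave 45 of 9457 genes (0.476%), 31 higher and 14 lower, or 48 and 12 with median scaling. The count became 24 without the untreated or the ADR array of 8 h and 25 without the untreated array of 16 h. Among BMP targets 5 of 9 rose, Id1 by 1.41, while the medians of the p53 and ATF4 lists were 0.04 and -0.09. Mdm2 changed by -0.03 and Cdkn1a by 0.14 there, and neither passed. The correlation with the changes of ADR alone in the transformed cells was 0.0609 across 8862 genes, and 189 of 332 had the same sign (56.9%, against 52.5% of all genes).

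**Figure D4:**
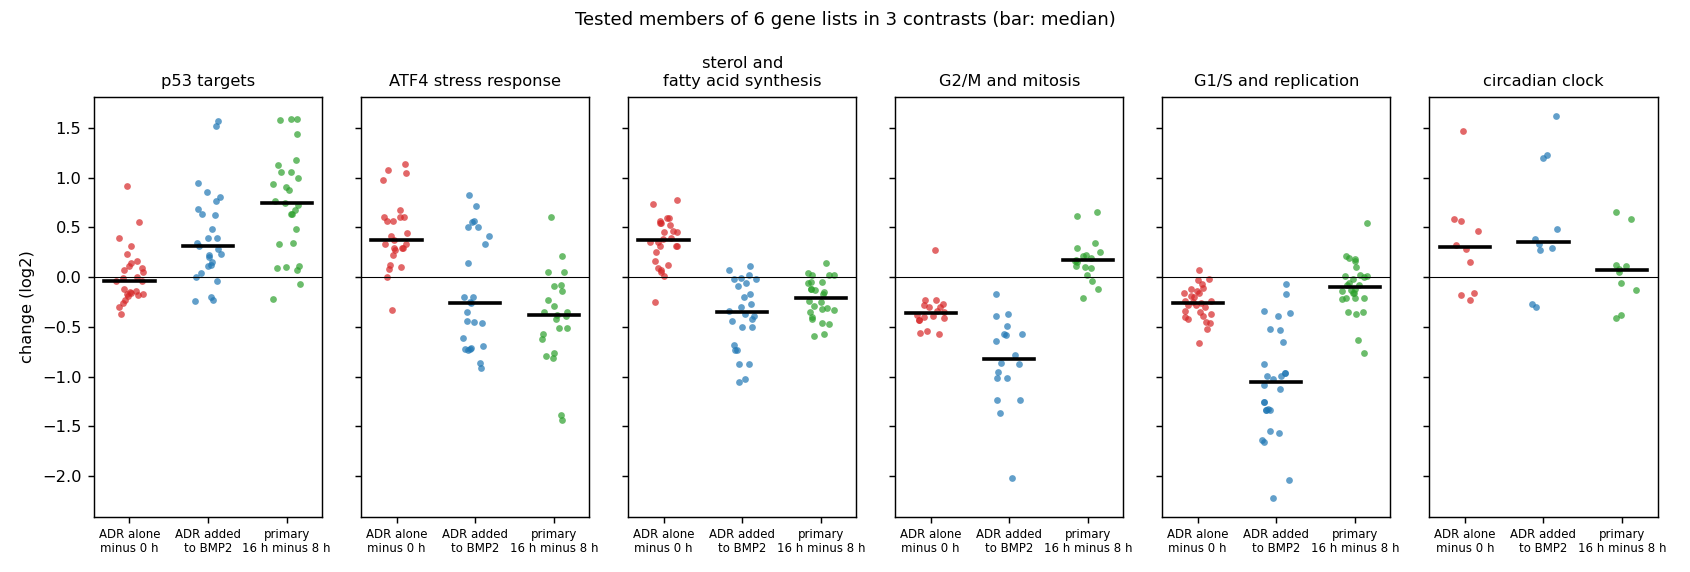
Change on the log2 scale (vertical axis) of the tested members of 6 gene lists in 3 contrasts that share no array, with each point a gene and each bar the median. ADR alone against 0 h has p53 targets around -0.04, and ATF4 and sterol genes at medians of 0.37 each, which lie below 0 in the other contrasts.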

How the data were processed

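Total RNA of 16 MEF samples was hybridised to Illumina BeadChips and exported with GenomeStudio 2011.1, per the submitters' processing notes. The deposited intensity is a linear bead signal per probe without background subtraction. Detection columns, deposited under the heading of a p-value, contain its complement to 1 and were inverted. The authors also deposited log2 values, which equal the log2 signal minus each array's 75th percentile and each probe's median over the 16 arrays. The deposited signals of the cre BMP2 array repeat those of the pbabe BMP2 array and were recovered from the log2 table. Of the recovered values 99.9% lay within 0.01 of a 0.1 step, and the same procedure returned 100% of the signals of the other 15 arrays. This array enters the fit but not the 4 arrays compared.

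Normalization used neqc of limma with an offset of 16. A probe entered a fit when its detection p was under 0.05 on 2 or more of the fitted arrays, and the brightest such probe stood for its gene (3628 of 24613 probes name no gene in the platform table and were tested as themselves), and a gene not detected on 1 side has its fold given as a bound. Contrasts were tested by limma 3.58.1 in R 4.3.3, with models of the 8 transformed arrays (4 agent levels and genotype, 3 residual degrees of freedom) or the 8 primary arrays (agent and time), two-sided, with Benjamini-Hochberg adjustment over all genes tested. The pairing comes from the genotype label. Over all genes the differences of the pbabe and cre pairs correlated at 0.395. No slide is named, so no slide block was fitted. Arrays have no depth, and their number limits the precision. In 1 simulated draw of 200 changed genes among 10283, 44.8%, 98.5% and 100% of changes of 0.5, 1 and 2 log2 units were recovered and 7.95% of 176 calls were false.

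The groups, gene lists and tests were chosen with earlier results of these data known. Named genes are the 15 highest and 15 lowest changes that passed, up to 4 members of each list that passed (2 where none did), the 8 highest and 8 lowest differences between the ADR contrasts, and Mdm2, Cdkn1a, Tk1, Top2a, Smad1, Trp53, Id1 and Id3. Trp53 had no probe that was kept. List members named beyond this rule were chosen after their values were seen. Alternatives were other normalizations, filters, probe rules, variance models, sets of arrays, no genotype term, a minimum change and leaving out each array.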

Additional observations from a re-analysis of the deposited data

Results flagged for a closer look

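The ADR contrast differed between cells without and with BMP2 in 2386 genes by the test of the difference itself, and the values here are the contrast without BMP2 minus that with BMP2, on the log2 scale. The highest were Bcat1 (2.33), the cytosolic aminotransferase of branched-chain amino acids, and the helicase subunit Mcm2 (2.02), followed by Siglecg (1.88), Aldh1l2 (1.86), Slc7a3 (1.84), the calcium channel subunit Cacna1c (1.79), Trim62 (1.77) and Tk1 (1.76). The lowest fitted values were those of Eef1a2 (-3.79), Krtap1-5 (-3.69), Matn4 (-3.28), Sag (-3.22), Got1l1 (-3.22), Tnfrsf18 (-3.17), Angpt2 (-3.10) and Itgb4 (-3.02). Of these Eef1a2, Krtap1-5, Matn4, Sag, Got1l1 and Tnfrsf18 were not detected on any of the 4 untreated and ADR arrays, so their fitted values come from the arrays with both agents, where their log2 intensities were 8.16 to 10.67 against 4.55 to 5.05 on those 4 arrays. These 6 values are no fold changes and have no order among themselves. Trim62 was detected on neither untreated array and on 1 ADR array, and Itgb4 on 1 of each.

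For some genes and lists the pbabe and the cre pair had opposite signs, with 1 array per genotype and condition, and these differences were not tested. The pbabe value precedes the cre value. They were -0.912 and 0.156 for Id1, -0.987 and 0.143 for Id3, -0.132 and 0.564 for Smad1, 0.0498 and -0.952 for Krt7, -0.393 and 0.215 for Adgre1, and -0.239 and 0.0371 for Itgb4. Values near 0 were 0.0156 and -0.063 for Mcm2 and -0.0934 and 0.00916 for Mdm2. Among lists the medians were -0.342 and 0.367 for BMP targets, -0.0707 and 0.0346 for immediate early genes, 0.00613 and -0.0391 for NRF2 genes and -0.17 and 0.191 for macrophage markers. Of all genes 63.7% had the same sign in both pairs.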

How the results depend on the processing

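The 399 genes of ADR alone against 0 h became 786 with only the 4 arrays compared (replicate block kept, 398 shared), 239 with no replicate block, that is without pairing on genotype (all 239 shared), and 26 with a log2 change of at least 1. Leaving out 1 of the 8 arrays gave 6 (pbabe untreated) to 325. The other alternatives gave 286 to 577. Counts with a log2 change of at least 1 were 583 for ADR added to BMP2, 599 for the difference between the ADR contrasts, 1336 for ADR against BMP2, 12 for ADR in primary cells and 101 for 16 h against 8 h. ADR in primary cells gave 0 genes without its time term (no replicate block). Leaving out single arrays gave 2606 to 4106 genes for ADR added to BMP2, 1383 to 1986 for the difference and 24 to 44 for ADR in primary cells. List medians near 0 turned sign. With median scaling these were fibroblast (-0.01), immediate early (-0.04), hypoxia and glycolysis (-0.04) and interferon (-0.003). With the authors' values they were fibroblast (-0.03), immediate early (-0.03), hypoxia and glycolysis (-0.02) and BMP targets (0.04). Without background correction BMP targets turned to 0.007, with detection on every array immediate early to -0.04 and epithelial markers to -0.13, and with only the 4 arrays immediate early to -0.02. The direction of no named gene that passed turned. Tnfrsf18, not detected here, turned to 0.0054 with the mean of its probes. Values of named genes that did not pass turned with 1 array left out: Adgre1 ranged from -0.352 to 0.174, Got1l1 from -0.171 to 0.0811, Id1 from -1.11 to 0.354, Id3 from -0.884 to 0.0406, Itgb4 from -0.235 to 0.0336, Krt7 from -0.913 to 0.011, Krtap1-5 from -0.0365 to 0.0958, Matn4 from -0.0289 to 0.251, Mcm2 from -0.0506 to 0.00311, Mdm2 from -0.0896 to 0.00534 and Smad1 from -0.126 to 0.558. The cause of these shifts was not tested. The number of arrays limits the precision.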
